A study of Mus musculus with 12 samples.

Results

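Krt6a, Krt6b, Krt16 and Krt17 are the keratin genes that epidermis switches on when it is wounded or stressed. They were chosen by symbol, as every probe annotated to the 4 genes on a one-colour Illumina bead array of newborn mouse tissue. These are 6 of 45281 probes, all 6 of which passed the detection filter, and 4 of the 12099 genes tested. The study holds 12 arrays of C57BL/6 mice taken at postnatal day 0, in 4 groups of 3: Krt1+/+ epidermis, Krt1-/- epidermis, Krt1+/+ skin and Krt1-/- skin. Krt1 encodes keratin 1, a keratin of the differentiating suprabasal layers, and Krt1-/- animals are homozygous for its loss. The skin samples are full thickness and so hold dermis beside epidermis. Nothing in the labels ties the arrays of a group to different animals, and a p-value here may reflect technical spread alone.

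Keratins form filaments as pairs of a type II and a type I chain. Krt6a and Krt6b encode type II chains, and Krt16 and Krt17 encode the type I chains they pair with. All 4 are made constitutively in parts of the hair follicle, in nail and in oral epithelium, and are low or absent in resting epidermis between follicles, where injury, inflammation and hyperproliferation induce them. Mutations in the human counterparts cause pachyonychia congenita, a disorder of nails and of thickened palm and sole skin. On the mouse assembly GRCm38.p6, Krt6b and Krt6a are neighbours on chromosome 15 with Krt5 beside Krt6a, and Krt16, Krt17 and Krt42 follow each other on chromosome 11. Krt6a and Krt6b are close copies, and the probes may read both to some extent. The same reservation holds among Krt16, Krt17 and Krt14, and cross-hybridisation was not tested.

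Median signals lay between 93.3 and 105.1 intensity units per array, undetected probes had medians of 89.2 to 99.7, and the brightest probe read between 21229 and 28206. Krt1 (probe ILMN_2651772) read 4329, 5915 and 1794 in Krt1+/+ skin against 280, 319 and 183 in Krt1-/- skin, a group difference of −4.71 on the log2 scale (adjusted p = 8.1e-05). In epidermis it read 1417, 2404 and 5954 against 1107, 2921 and 987, groups that overlapped, and the change of −1.08 did not pass (adjusted p = 0.18). The same probe read 7.30-fold higher in the arrays labelled Krt1-/- epidermis than in Krt1-/- skin (adjusted p = 0.0018), so the Krt1 signal goes against the label of these epidermis arrays. They are therefore called epidermis labelled Krt1-/-, and every direction drawn from them, the averages over both tissues included, rests on that label. The first 6 sample columns of the deposited table hold Krt1+/+ epidermis and Krt1-/- skin and the last 6 hold the other groups, and over 16240 probes undetected on every array, groups within a set of columns correlated at −0.037 and −0.018 against −0.156 to −0.130 across sets. Genotype and column set therefore cannot be told apart within a tissue, nor can tissue and column set within a genotype. Krt1-/- skin replicate 1 is an exception, with a mean correlation of −0.088 to the other group of its own set and −0.080 to the groups of the other set.

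Krt6a was at or near background in both Krt1+/+ groups and clearly above it in both Krt1-/- groups. Its brighter probe, ILMN_1228295, read 125, 94.0 and 109 in Krt1+/+ epidermis, where 2 of 3 arrays detected it, and 764, 1116 and 1058 in epidermis labelled Krt1-/-. In Krt1+/+ skin it read 99.1, 97.7 and 92.1, with 1 of 3 arrays detecting it, and in Krt1-/- skin 739, 581 and 245. All 3 Krt1-/- arrays lay above all 3 Krt1+/+ arrays in each tissue, and Krt1-/- skin replicate 3 was the lowest of the Krt1-/- arrays. After background correction and quantile normalization, Krt6a was 26.4-fold higher in epidermis labelled Krt1-/- than in Krt1+/+ epidermis, a log2 difference of 4.72 ± 0.42 (SE) with a limma adjusted p of 5.7e-06. In skin the rise was 17.3-fold, or 4.12 ± 0.42 (SE), with an adjusted p of 1.5e-05. These folds rest on a denominator near background: without background correction they were 7.99-fold and 4.72-fold, and without Krt1-/- skin replicate 3 the skin value was 27.5-fold.

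The other Krt6a probe, ILMN_2738369, gave the same picture at a lower level. It read 116, 96.9 and 105 in Krt1+/+ epidermis against 540, 939 and 633 in epidermis labelled Krt1-/-, 19.5-fold higher (adjusted p = 2.7e-06 over 21712 probes). It was detected on 0 of 3 Krt1+/+ skin arrays, at 88.7, 89.8 and 88.7, and read 598, 434 and 244 in Krt1-/- skin. The fitted rise in skin was 16.5-fold (limma adjusted p = 4.4e-06). Set against the detection limit of the Krt1+/+ skin arrays, its background-corrected signal was 13.3-fold higher in Krt1-/- skin, a value that was not tested. Both sizes depend on the background correction.

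Krt6b showed the largest change of the 4 genes and had the second largest fitted rise of all genes tested in epidermis. Probe ILMN_2594736 read 692, 155 and 231 in Krt1+/+ epidermis and 11482, 19828 and 13870 in epidermis labelled Krt1-/-. In skin it read 122, 204 and 104 with Krt1 and 9290, 5501 and 2613 without it. The genotypes did not overlap in either tissue, and the lowest Krt1-/- array still read more than the highest Krt1+/+ array. The rise was 64.9-fold in epidermis, a log2 difference of 6.02 ± 0.64 (SE) with an adjusted p of 2.4e-05. It was 91.2-fold in skin, or 6.51 ± 0.64 (SE), with an adjusted p of 1.3e-05. Among the 12099 genes the rise ranked 2 in epidermis and 6 in skin. The size turned on single arrays and on the background: the epidermis fold was 104.9-fold without Krt1+/+ epidermis replicate 1, the skin fold was 144-fold without Krt1+/+ skin replicate 2, and without background correction they were 45.1-fold and 34.7-fold.

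The other Krt6b probe, ILMN_1235713, read 545, 133 and 161 in Krt1+/+ epidermis against 7543, 12097 and 9765 in epidermis labelled Krt1-/-, 61.7-fold higher (adjusted p = 1.4e-05). In skin it read 98.4, 150 and 96.5, with 2 of 3 arrays detecting it, against 6296, 3284 and 2071, 99.1-fold higher (adjusted p = 6.3e-06). Both probes thus placed Krt1+/+ epidermis replicate 1 highest of its group and Krt1-/- skin replicate 3 lowest of its group. Over probes, 16.2% of those tested rose in epidermis and 13.2% in skin, and all 4 Krt6a and Krt6b probes were among them in both tissues.

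Krt16, the type I chain induced with Krt6, was expressed in every group and rose in both Krt1-/- tissues. Its single probe, ILMN_1229813, was detected on all 12 arrays and read 3939, 2033 and 1875 in Krt1+/+ epidermis and 14290, 17794 and 19817 in epidermis labelled Krt1-/-. In skin it read 808, 925 and 625 with Krt1 and 18306, 11897 and 9068 without it. The genotypes were apart in both tissues. The rise was 6.46-fold in epidermis (2.69 ± 0.31 SE on the log2 scale, adjusted p = 4.2e-05) and 15.1-fold in skin (3.91 ± 0.31 SE, adjusted p = 2.2e-06), ranks 62 and 34 among all genes.

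Krt17, a type I keratin of the outer root sheath that is also induced by wounding, was bright in all 4 groups and differed little between genotypes. Probe ILMN_2661214 read 16064, 10125 and 14362 in Krt1+/+ epidermis and 11773, 14235 and 16983 in epidermis labelled Krt1-/-, and these groups overlapped. The epidermis change of 0.07 on the log2 scale did not pass, with a 95% confidence interval of −0.32 to 0.46 (adjusted p = 0.82). In skin it read 9133, 6581 and 4915 with Krt1 and 14652, 11593 and 11948 without it, which did not overlap. The rise in skin was 1.48-fold, 0.56 ± 0.18 (SE) on the log2 scale, with an adjusted p of 0.030. Median centring in place of quantile normalization gave 1.90-fold (0.92). The call did not survive leaving out replicate 1 (adjusted p = 0.079) or 2 (0.090) of Krt1-/- skin or replicate 2 (0.054) or 3 (0.11) of Krt1+/+ skin, nor a fit of the skin arrays alone (0.051).

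**Figure D1:**
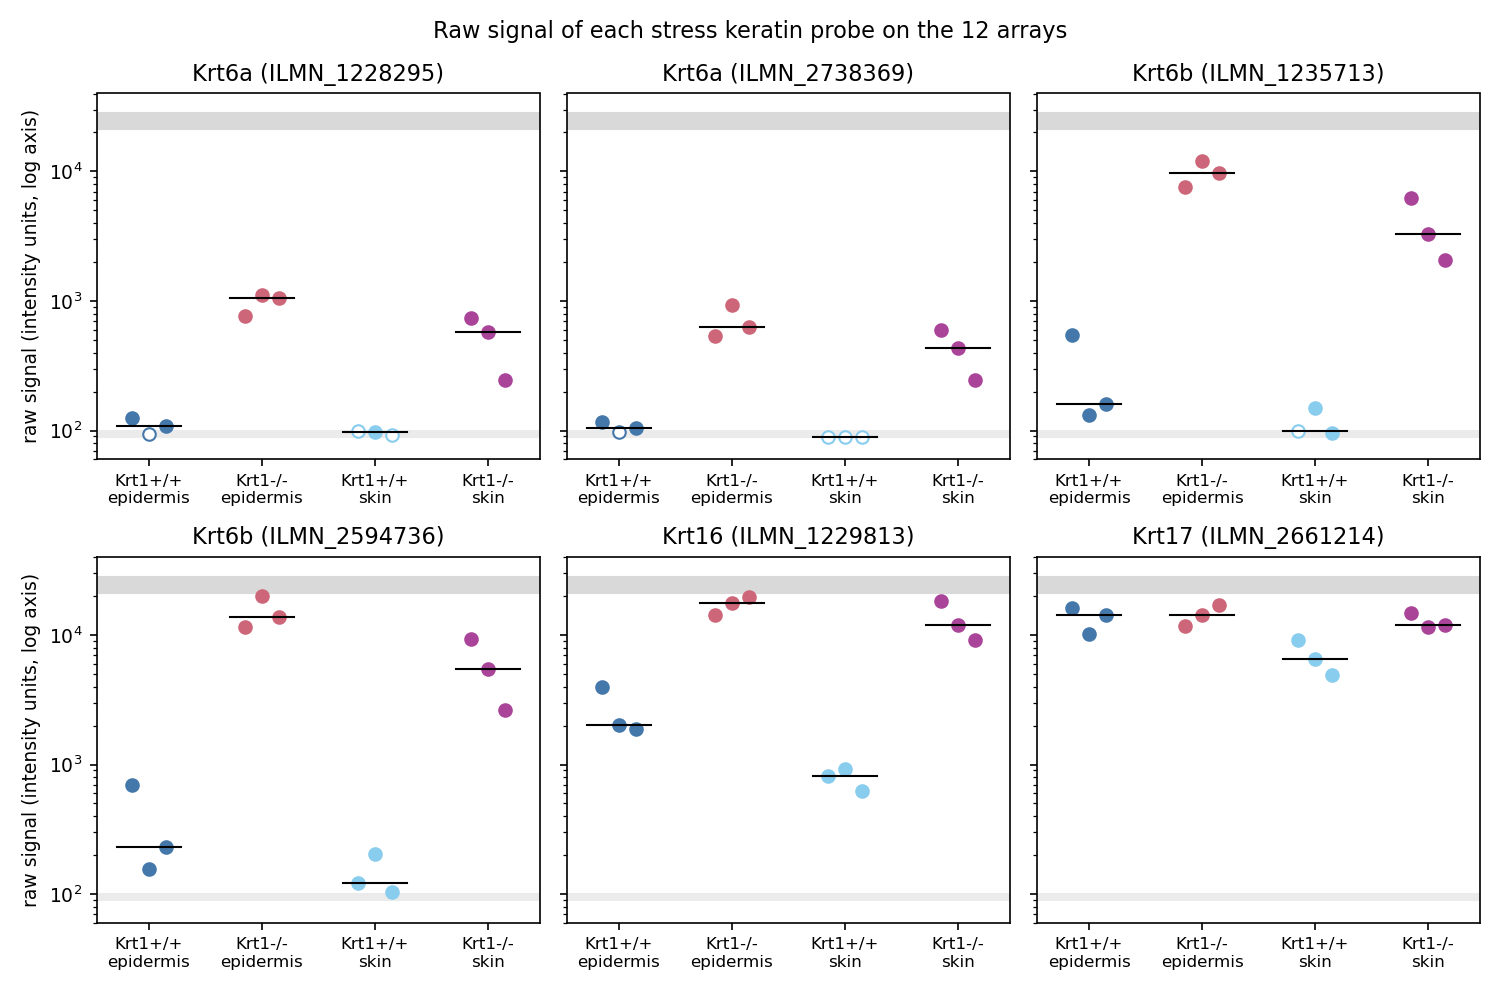
Raw signal (intensity units, log axis) of each of the 6 probes on the 12 arrays by group, with filled points for arrays that detected the probe, open points for arrays that did not, a line at each group's median, a dark band for the brightest probe of the arrays (21229 to 28206) and a light band for the medians of undetected probes (89.2 to 99.7). Krt6a, Krt6b and Krt16 lie apart between genotypes in both tissues, whereas Krt17 overlaps in epidermis.

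Counted together, 3 of the 4 genes rose in epidermis, where 15% of all genes tested rose, and 4 of 4 rose in skin, where 14.4% did. Without Krt1-/- skin replicate 1 the skin folds were 14.1 for Krt6a, 71.6 for Krt6b and 13.0 for Krt16, and 3 of 4 passed. The median change of the 4 was 3.71 in epidermis and 4.01 in skin on the log2 scale, beside −0.00 and −0.07 over all genes. Krt6a, Krt6b and Krt16 passed and were higher in both tissues, as were 3.3% of genes. Genes whose Krt1-/- arrays all lay above the Krt1+/+ arrays in both tissues made up 4.72% of those tested and included the same 3 members.

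The average of the epidermis and skin changes equals a fit with column set as a block, and an additive difference between sets cancels in it. On this average Krt6a was 21.4-fold higher (log2 4.42 ± 0.30 SE, adjusted p = 4.4e-07), Krt6b 77.0-fold (log2 6.27 ± 0.45 SE, adjusted p = 8.9e-07) and Krt16 9.87-fold (log2 3.30 ± 0.22 SE, adjusted p = 4.2e-07). Krt17 was 1.24-fold higher and did not pass (log2 0.32 ± 0.13 SE, adjusted p = 0.090). Without background correction the averages were 6.14-fold for Krt6a and 39.6-fold for Krt6b. Thus 3 of 4 members rose on the average, beside 10.9% of all genes. Without Krt1-/- skin replicate 1 the averages were 19.3-fold for Krt6a, 68.2-fold for Krt6b, 9.17-fold for Krt16 and 1.24-fold for Krt17, with the same calls.

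Comparisons within a column set join genotype with tissue and were added after seeing the data. In the first set, Krt1-/- skin exceeded Krt1+/+ epidermis 12.3-fold for Krt6a (adjusted p = 2.3e-05), 22.9-fold for Krt6b (adjusted p = 1.5e-04) and 4.98-fold for Krt16 (adjusted p = 9.2e-05), while Krt17 differed by 0.03 on the log2 scale (adjusted p = 0.94). Of all genes, 13.8% were higher in this comparison. In the second set, epidermis labelled Krt1-/- exceeded Krt1+/+ skin 37.3-fold for Krt6a, 258-fold for Krt6b, 19.5-fold for Krt16 (adjusted p at most 3.8e-07) and 1.52-fold for Krt17 (adjusted p = 0.016), beside 20.7% of all genes higher. Without background correction Krt6a was 4.25-fold and Krt6b 16.02-fold higher in the first set, and 8.87-fold and 97.7-fold in the second. Leaving out 1 array took Krt6a to 19.5-fold in the first set (without Krt1-/- skin replicate 3), and Krt6b to 37.0-fold there (without Krt1+/+ epidermis replicate 1) and to 408-fold in the second (without Krt1+/+ skin replicate 2).

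**Figure D2:**
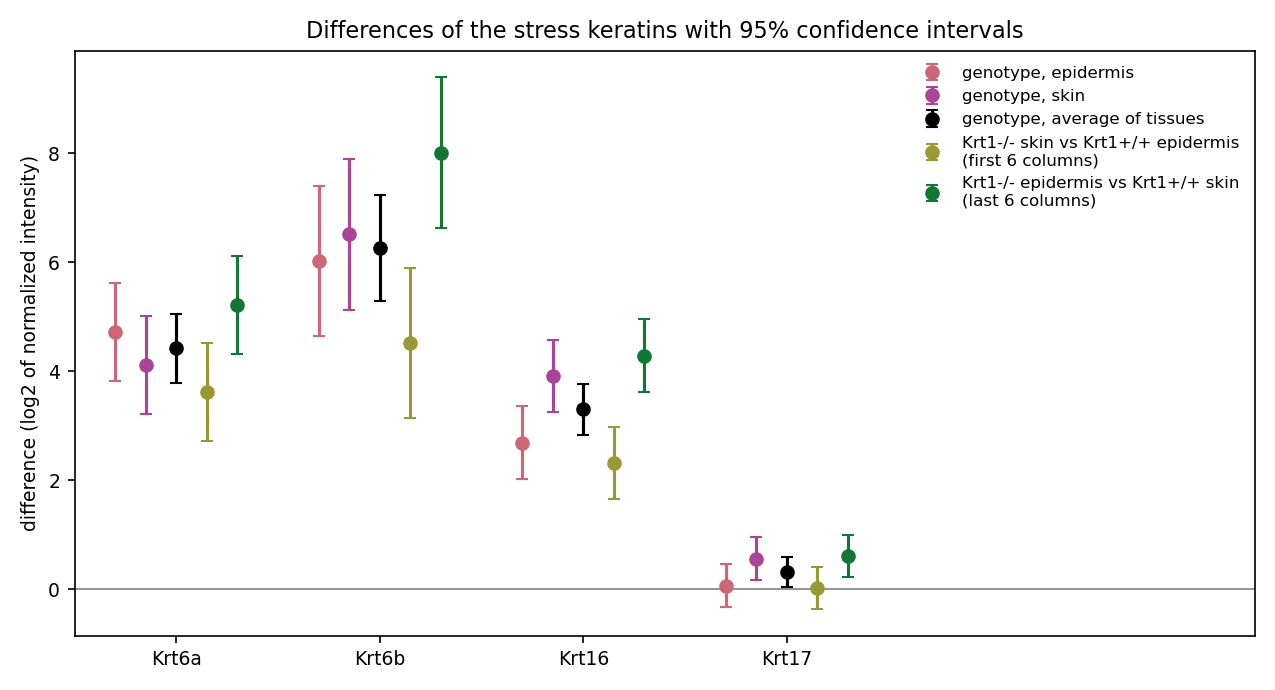
Differences in normalized log2 intensity of the 4 genes with 95% confidence intervals (points are the fitted differences, bars the intervals), for the genotype comparison in epidermis, in skin and on average, and for the comparisons within the first and last 6 columns. The intervals of Krt6a, Krt6b and Krt16 lie above 0 in all 5 comparisons, and those of Krt17 include 0 in epidermis and in the first 6 columns.

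The bright probes were set against the brightest probe of each array, and no level at which signals saturate was established. As a share of the array's brightest probe, Krt16 averaged 65.0% in epidermis labelled Krt1-/- (range 55.5% to 70.3%) and 51.9% in Krt1-/- skin, against 10.1% and 3.32% in the Krt1+/+ groups. Krt6b (ILMN_2594736) averaged 56.9% in epidermis labelled Krt1-/-, where 1 array reached 77.1%, and 23.0% in Krt1-/- skin. Krt17 averaged 51.9% in Krt1+/+ epidermis, 53.8% in epidermis labelled Krt1-/-, 28.8% in Krt1+/+ skin and 50.4% in Krt1-/- skin. Krt6a never exceeded 4.34%. Differences among signals near a ceiling can be compressed, which would touch the Krt1-/- side of Krt6b and Krt16 and both sides of the Krt17 comparison in epidermis. Whether and how far they are compressed was not tested.

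**Figure D3:**
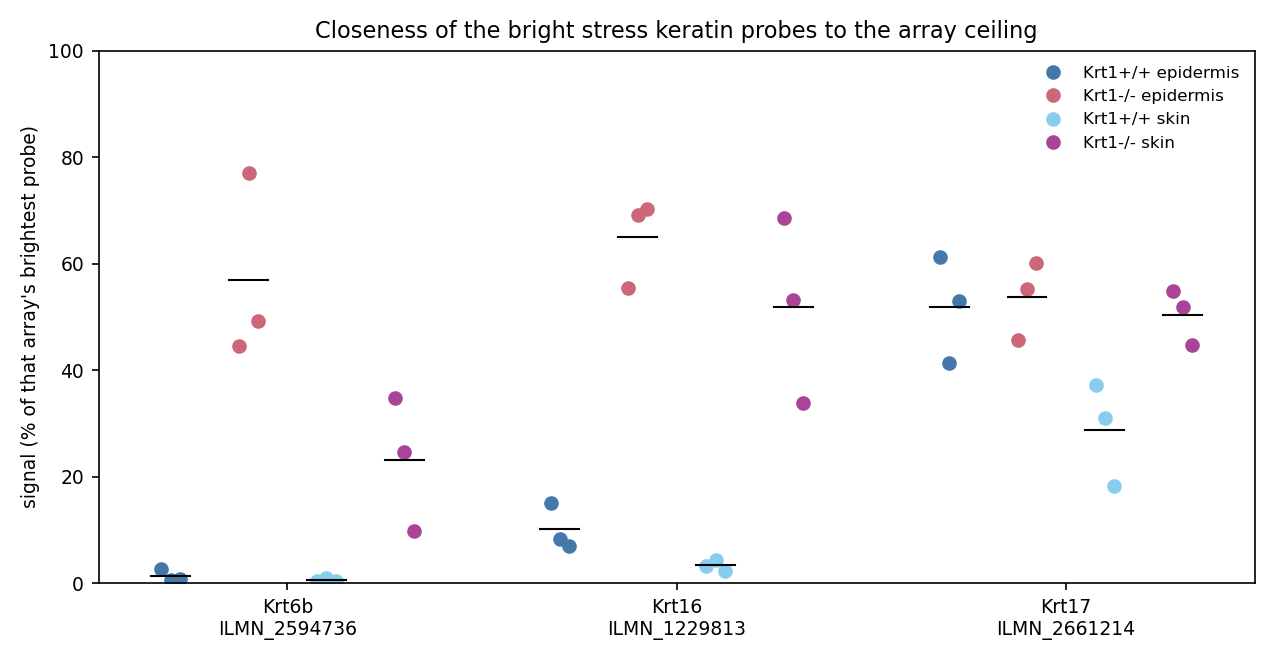
Signal of the Krt6b, Krt16 and Krt17 probes as a percent of the brightest probe on the same array, for the 12 arrays by group, with a line at each group's mean. Krt17 lies between 41.4% and 61.4% in Krt1+/+ epidermis and is near 50% of the brightest probe in 3 of 4 groups, while Krt6b and Krt16 reach such values in Krt1-/- samples.

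The 4 genes did not change equally. The log2 difference of 2 genes within an array was compared between genotypes for all 6 combinations, with an exact two-sided permutation test within tissue over 400 arrangements (smallest possible p 0.005) and Benjamini-Hochberg adjustment over the 6. Krt6b rose more than Krt6a by 1.85 on the log2 scale on average (1.30 in epidermis, 2.40 in skin), an exact permutation adjusted p of 0.006. Krt6b rose more than Krt16 by 2.96 and more than Krt17 by 5.95, Krt6a rose more than Krt17 by 4.10, and Krt16 rose more than Krt17 by 2.99 (exact permutation adjusted p = 0.006 for each). The order of Krt6a and Krt16 was not settled: Krt6a rose more by 1.12 (exact permutation adjusted p = 0.035), but by −0.61 without background correction (0.13) and by −0.59 in the deposited normalized values (0.14). Without background correction Krt6a minus Krt17 was 2.30 and Krt6b minus Krt16 was 2.08 (exact permutation adjusted p = 0.006 for each). A ratio within an array shows only that the measured changes were unequal, and Krt6a is read near the bottom of the scale and Krt16 near the top.

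The comparison of skin with epidermis within a genotype also compares the 2 column sets, and the part of the set was not tested. In Krt1+/+ animals, skin was below epidermis by 1.60 on the log2 scale for Krt16 (3.02-fold, adjusted p = 9.5e-04), by 1.99 for Krt6b (3.98-fold, adjusted p = 0.023) and by 0.54 for Krt17 (1.45-fold, adjusted p = 0.028), beside 22% of all genes that were lower. The Krt6b call was lost without Krt1+/+ epidermis replicate 1 (0.11) or Krt1+/+ skin replicate 1 (0.096) or 3 (0.089), and the Krt17 call without Krt1+/+ epidermis replicate 1 (0.10) or 3 (0.061) or Krt1+/+ skin replicate 3 (0.11). Krt6a, near background in both, differed by −0.50 and did not pass (adjusted p = 0.37). In Krt1-/- animals the skin minus epidermis differences were −1.10 for Krt6a (adjusted p = 0.0502), −1.50 for Krt6b (0.079), −0.37 for Krt16 (0.36) and −0.04 for Krt17 (0.88), and 0 of 4 passed by limma, beside 20.1% of all genes that were lower, while 2 of 4 had an unadjusted p under 0.05. Every Krt1-/- skin array lay below the other group for the brighter Krt6a probe and both Krt6b probes. The share of all genes with groups apart in this way, or with such an unadjusted p, was not counted, and nothing is read from either. Krt6a stayed short of the threshold in 4 of 11 processing alternatives and passed it in the others. Bulk skin holds other tissue beside epidermis, and fewer keratinocytes and less RNA per keratinocyte cannot be told apart in it.

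The term for a genotype effect that differs between tissues is also the last column set against the first. Tissue dependence and column set cannot be told apart in this term. It passed for 1 of the 4 genes, beside 30.9% of all genes. For Krt16 the effect was smaller in epidermis than in skin by 1.22 on the log2 scale (95% confidence interval −2.17 to −0.28, adjusted p = 0.049). This call sits at the threshold and was lost in 9 of 12 fits that left out an array (adjusted p up to 0.12). The differences for Krt6a (0.61, interval −0.67 to 1.88), Krt6b (−0.49, interval −2.44 to 1.46) and Krt17 (−0.50, interval −1.05 to 0.05) did not pass, and their intervals leave room for differences in either direction.

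By normalized log2 intensity, the group order was the same for Krt6a, Krt6b and Krt16: epidermis labelled Krt1-/-, then Krt1-/- skin, then Krt1+/+ epidermis, then Krt1+/+ skin. Krt6a averaged 9.66 ± 0.16, 8.56 ± 1.16, 4.94 ± 0.46 and 4.44 ± 0.09 in this order (SD, n = 3). Krt6b averaged 13.72 ± 0.41, 12.22 ± 0.97, 7.70 ± 1.24 and 5.71 ± 1.14 (SD, n = 3). Krt16 averaged 13.96 ± 0.21, 13.58 ± 0.56, 11.26 ± 0.50 and 9.67 ± 0.42 (SD, n = 3). Krt17 averaged 13.65 ± 0.18, 13.61 ± 0.18, 13.58 ± 0.23 and 13.05 ± 0.19 (SD, n = 3), the first 3 of which differed by less than their spread. The call between the Krt1-/- groups turned on the processing for Krt6a and Krt6b, and the Krt1+/+ groups did not pass for Krt6a.

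Of 29 other keratins tested, 4 rose and 3 fell in epidermis, 2 rose and 4 fell in skin, and 3 rose and 2 fell on the average, with a median of −0.50 beside −0.05 over all genes. The 29 include Krt1, the targeted gene, which was among those that fell in skin (−4.71) and on the average (−2.89). Over all genes, 15% rose and 16.8% fell in epidermis, 14.4% and 16.2% in skin, and 10.9% and 13.2% on the average, and nothing particular to the family is read from these counts. The count that fell was 0 in epidermis without replicate 2 or 3 of epidermis labelled Krt1-/- and 1 without background correction, and in skin it was 2 without Krt1+/+ skin replicate 2 and 6 without replicate 3 of epidermis labelled Krt1-/-. Krt84, a hard keratin, was 3.73 higher in epidermis and 3.10 higher in skin on the log2 scale (adjusted p = 6.2e-04 and 0.0022). Of 7 hair shaft keratins tested, 1 rose and 2 fell in epidermis, and 1 rose and 0 fell in skin and on the average. Their medians were −1.25, −0.32 and −0.79, so the rise of Krt84 does not stand for the hard keratins. Krt77, a type II keratin of the epidermis, was 1.52 higher in both (adjusted p = 0.0097 and 0.010). The epidermis call of Krt77 was lost without replicate 2 of epidermis labelled Krt1-/-, and its skin call without background correction and in the deposited normalized values. Krt5, the basal type II keratin beside Krt6a on the chromosome, rose by 1.48 in epidermis (adjusted p = 0.0073) and fell by 1.40 in skin (adjusted p = 0.011), and its average of 0.04 did not pass. The Krt5 skin call was lost without Krt1+/+ skin replicate 2. Krt14, the basal type I partner of Krt5, changed by −0.02 and −0.09 and Krt10, the partner of keratin 1, by −0.02 and 0.02, and neither passed. Krt15, a basal and follicle bulge keratin, fell by 0.97 in epidermis and 2.34 in skin (adjusted p = 0.024 and 9.3e-05), the former lost without replicate 2 or 3 of either epidermis group. The neighbour Krt42 changed by −0.12 and 0.13 and the companion layer keratin Krt75 by −0.19 and 0.39, and neither passed. Of 6 inner root sheath keratins and 5 simple epithelial keratins, 0 passed in either tissue by limma, and 1 inner root sheath keratin in epidermis and 1 simple epithelial keratin in skin had an unadjusted p under 0.05. The median changes in epidermis and skin were −1.04 and −1.07 for the inner root sheath keratins and −0.32 and 0.06 for the simple epithelial keratins.

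**Figure D4:**
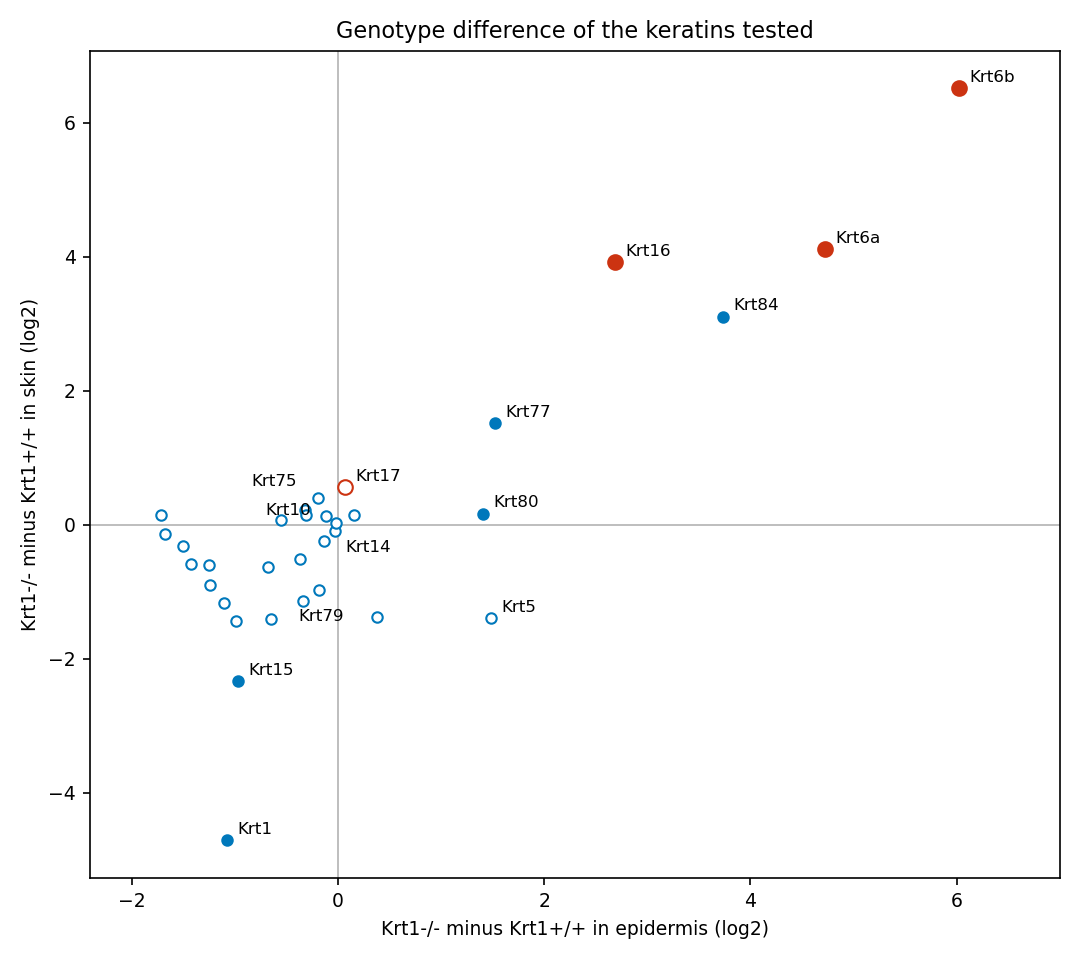
Genotype difference (log2) of each keratin tested in epidermis (horizontal axis) and in skin (vertical axis), with the 4 stress keratins in red and the others in blue, and filled points for genes that passed on the average over both tissues. Krt6a, Krt6b and Krt16 lie in the upper right with Krt84, and Krt17 lies near 0 with most of the family.

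The genes whose normalized log2 intensity followed each member most closely over the 12 arrays, taken as the 3 highest Pearson correlations with the same libraries in every value, are given as a description. For Krt6a they were Sprr2i, a small proline-rich cornified envelope gene (r = 0.984), Epgn, an EGF receptor ligand (0.983), and Arc, an immediate early gene (0.980). For Krt6b they were the retinoic acid binding protein gene Crabp2 (0.976), the serine protease gene Prss27 (0.975) and Csta3, of the stefin A family (0.975). For Krt16 they were Csta3 (0.985), Rptn, which encodes repetin (0.983), and Sprr2g (0.981). For Krt17 they were Mfsd2a, a lipid transporter (0.928), Eif1ad (0.922) and Ankrd37 (0.907), none of which is in the lists of the other 3. Krt6a, Krt6b and Krt16 correlated with each other at 0.955 to 0.984 and with Krt17 at 0.650 to 0.761. All of these values carry the genotype difference between the groups, with 2 groups high and 2 low.

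Of the genes paired in this way with Krt6a, Krt6b and Krt16, Sprr2g was 43.2-fold higher in epidermis labelled Krt1-/- and 136-fold higher in Krt1-/- skin, and Rptn 19.8-fold and 91.1-fold. Epgn was 65.8-fold and 59.9-fold higher. These sizes moved with the processing. On the log2 scale the lowest values over the alternatives were 4.51 and 5.17 for Sprr2g, against 5.43 and 7.09 in the main fit. They were 3.98 and 5.83 for Rptn (4.31 and 6.51 in the main fit) and 5.48 and 5.02 for Epgn (6.04 and 5.90). For Krt17, Mfsd2a changed 1.34-fold in epidermis (adjusted p = 0.12) and rose 1.77-fold in skin (adjusted p = 0.0068), while Eif1ad rose 1.36-fold in skin (adjusted p = 0.045), a call lost in 14 of 22 alternatives.

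Several pathways are known to induce these keratins in keratinocytes, and their genes were counted as lists, to be read beside the shares of all genes that rose (15% in epidermis, 14.4% in skin, 10.9% on the average) or fell (16.8%, 16.2% and 13.2%). EGF receptor ligands and receptor are a classical inducer: of 7 tested, 2 rose and 1 fell in epidermis, 4 rose and 1 fell in skin, and 2 rose on the average (median 0.29). Hbegf, an EGF receptor ligand of wounded epidermis, was 3.31 higher in epidermis and 1.85 higher in skin on the log2 scale (adjusted p = 1.4e-04 and 0.0071). Of 9 interleukin 1 family genes and receptors, which act on Krt6 and Krt16 through inflammation, 3 rose and 1 fell in epidermis and 6 rose in skin. Il1b was 2.25 and 1.58 higher (adjusted p = 9.4e-04 and 0.0091), with values down to 1.06 and 0.63 over the alternatives. The antagonist Il1rn was 0.63 and 1.83 higher (adjusted p = 0.020 and 1.4e-05). The epidermis call of Il1rn passed in 17 of 22 alternatives, with values down to 0.19. Of 10 AP-1 and C/EBP transcription factors, 2 rose on the average, namely Junb (1.65, adjusted p = 1.4e-04) and Cebpb (0.38, adjusted p = 0.025), the latter lost in 7 of 21 alternatives. Without Krt1-/- skin replicate 1, 1 of the 10 rose. Of 5 genes of interferon gamma and interleukin 6, 17 or 22 signalling, 1 rose on the average, Osmr, by 0.59 (adjusted p = 0.043). The Osmr call was not followed over the alternatives.

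NRF2, the regulator of the oxidative stress response, is known to raise Krt16 and Krt17 in mouse epidermis. Of 11 NRF2 genes and targets, 5 rose and 3 fell in epidermis, beside 15% and 16.8% of all genes. In skin 5 rose and 1 fell, beside 14.4% and 16.2%. On the average 6 rose and 1 fell (median 0.44), beside 10.9% and 13.2% of all genes. Slc7a11, a cystine transporter, was higher by 3.15, Gsta4, a glutathione transferase, by 2.89, and Srxn1, sulfiredoxin, by 2.31 on the log2 average (adjusted p at most 3.2e-05). Over the alternatives these values went down to 1.81, 1.59 and 1.75. Krt17 is a known hedgehog-responsive gene of hair follicles and tumours. Of 7 hedgehog genes, 0 rose and 5 fell on the average (median −0.44), among them the ligand Shh by 1.47 (adjusted p = 8.5e-05) and the transcription factor Gli2 by 0.84 (adjusted p = 0.0014). Without Krt1-/- skin replicate 1, 3 of the 7 fell. Of 5 partners of keratin 17 in growth control, 1 rose and 3 fell in epidermis (median −0.74), 3 rose in skin (median 1.11) and 1 rose on the average. The last was Sfn, 14-3-3 sigma, which was 3.22 higher in epidermis (adjusted p = 4.6e-04), while its change of 1.11 in skin did not pass (adjusted p = 0.12).

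**Figure D5:**
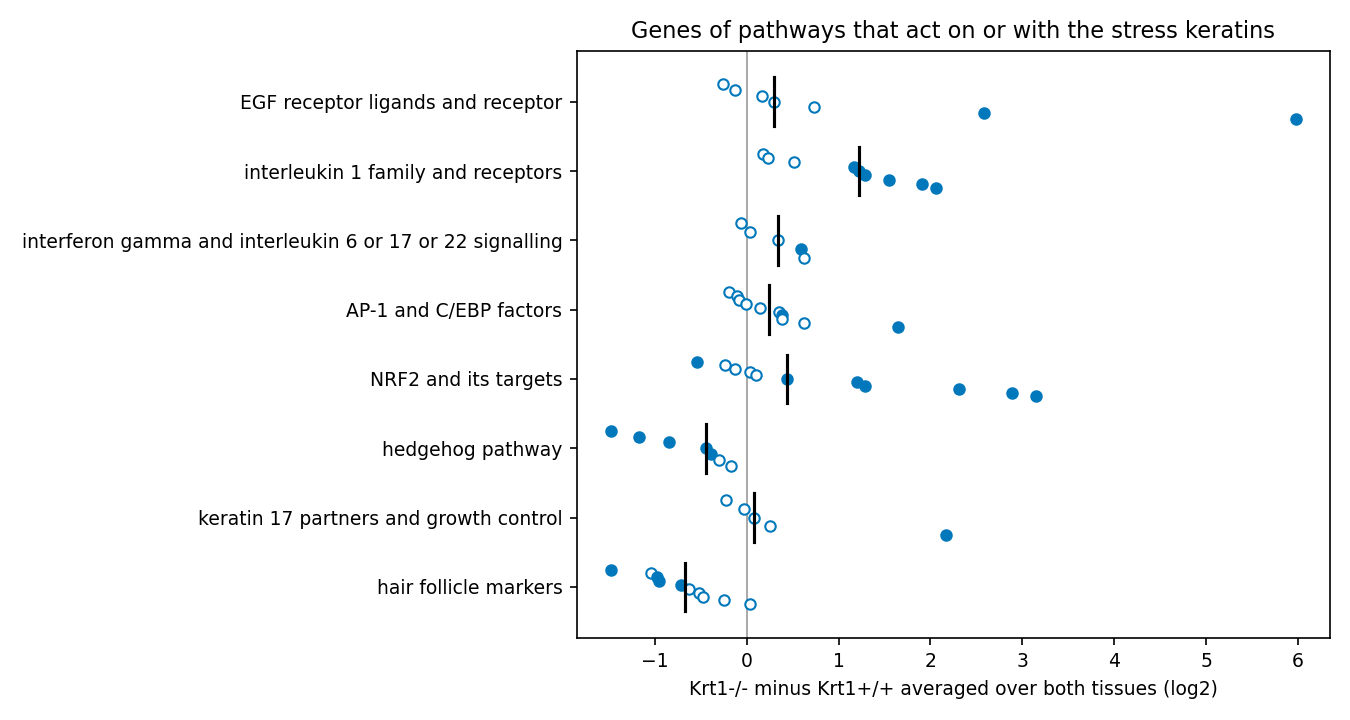
Average genotype difference over both tissues (log2) of each gene tested in 8 lists, with filled points for genes that passed and a vertical line at each list's median. The interleukin 1 list has its median at 1.23 with 6 of 9 passing upward, and the hedgehog and hair follicle lists have medians of −0.44 and −0.67.

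The tissue markers were read beside these results. Markers of epidermal keratinocytes (7 genes tested) summed to 35076 to 43375 normalized units in Krt1+/+ epidermis, 39447 to 40657 in epidermis labelled Krt1-/-, 33825 to 39375 in Krt1+/+ skin and 33148 to 38267 in Krt1-/- skin. By gene, 1 rose and 2 fell in epidermis, beside 15% and 16.8% of all genes. In skin 2 rose and 1 fell, beside 14.4% and 16.2%, and 0 passed on the average. Endothelial markers were detected on all 3 arrays for 0 of 5 genes in either epidermis group and for 5 of 5 in both skin groups. Dermal fibroblast markers were so detected for 5 of 7 genes in Krt1+/+ epidermis and 3 of 7 in epidermis labelled Krt1-/-. In the same order the counts were 4 and 5 of 7 for skeletal muscle, 2 and 3 of 6 for mast cell and 1 and 2 of 4 for adipocyte markers. In both epidermis groups they were 4 of 4 for erythroid and 6 of 6 for macrophage and dendritic cell markers. In skin, endothelial markers summed to 1856 to 2435 with Krt1 and 814 to 1230 without it, with 4 of 5 genes lower, and mast cell markers to 12311 to 18139 and 7050 to 8892, with 4 of 6 lower. Markers of the hair follicle, where all 4 stress keratins are made without injury, were read over 10 genes. They summed to 6223 to 8100 in Krt1+/+ epidermis, 2800 to 3576 in epidermis labelled Krt1-/-, 4296 to 5495 in Krt1+/+ skin and 1855 to 4546 in Krt1-/- skin. The sums lay apart in epidermis and overlapped in skin. By gene, 4 of 10 fell in epidermis, 2 in skin and 4 on the average, beside 16.8%, 16.2% and 13.2% of all genes, with 7 to 9 of 10 detected on all 3 arrays of each group. Dermal fibroblast markers (7 genes) summed to 37692 to 41062 in Krt1+/+ skin and 23434 to 26160 in Krt1-/- skin, with 2 of 7 genes lower. Macrophage and dendritic cell markers summed to 1055 to 1232 and 726 to 820, with 2 of 6 lower. Sums of skeletal muscle markers (45482 to 72427 and 35796 to 63332), adipocyte markers and erythroid markers overlapped between the skin groups. In skin, the stress keratins were higher in the group with the lower fibroblast, endothelial, mast cell and macrophage sums. The part of these markers in the skin results was not tested.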

How the data were processed

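RNA of the 12 samples was amplified to biotin-labelled cRNA and hybridised to one-colour Illumina arrays, per the labels' protocols. The authors deposited linear bead intensity for each probe with background included, and a detection p-value beside it, per the file headers. They also deposited normalized intensity, made by a method not given in the sources used here. Intensity was corrected and quantile normalized by limma 3.58.1 (neqc, offset 16) under R 4.3.3 and taken as log2. Probes with detection p under 0.05 on at least 3 of 12 arrays were kept, and the brightest kept probe, by mean, stood for its gene. Of 45281 probes 34885 had 1 gene symbol in the platform annotation, 18 several and 10378 none; symbols were updated by gene ID for 34807 probes. One limma fit of the 4 groups (8 residual and 5.39 prior degrees of freedom) gave every contrast, with Benjamini-Hochberg adjustment over 12099 genes and a threshold of 0.05.

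Members and gene lists were chosen with earlier results of these data known. Named were the 4 genes, Krt1, keratins, at most 4 genes of each other list by smallest p on the average, and the 3 nearest patterns of each member. Alternatives were the background correction, normalization, detection filter, probe rule, variance model, arrays fitted, a replicate block and each array left out. The fits were tested on simulated data. With 3 arrays a group, array number limits precision.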

Additional observations from a re-analysis of the deposited data

Results flagged for a closer look

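The interaction term of the limma fit (genotype effect in epidermis minus that in skin, log2) passed for 9 of the genes named above. Krt16 rose less in epidermis than in skin (−1.22, adjusted p = 0.049), as did Rptn (−2.20, adjusted p = 0.0017), Sprr2g (−1.65, adjusted p = 0.025) and Il1rn (−1.20, adjusted p = 0.0034). The change was larger in epidermis for Junb (1.58, adjusted p = 0.011), whose skin rise passed in 9 of 22 alternatives, and for Sfn (2.11, adjusted p = 0.040), which did not pass in skin. Krt5 went in opposite directions (2.88, adjusted p = 8.9e-04). The difference was positive for Krt1 (3.63, adjusted p = 0.0047), which fell in skin and did not pass in epidermis, and for Krt15 (1.37, adjusted p = 0.024). The interaction term is also the last column set against the first, so tissue dependence and column set cannot be told apart in it. Over all genes 30.9% passed it. A difference between the 2 column sets also does not cancel in any comparison within a tissue or a genotype.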

How the results depend on the processing

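The rises of Krt6a, Krt6b and Krt16 in epidermis, in skin and on the average passed under every alternative and with each array left out. No background correction and the deposited normalized table turned the tissue difference of the Krt6b effect to 0.38 and 0.36 and the unequal change of Krt6a and Krt16 to −0.61 and −0.59, ended the Krt6b difference between Krt1+/+ tissues (−1.12 in both) and the Krt16 tissue difference (−1.13 and −1.14), and made calls of Krt17 on the average (0.32 and 0.31), of Krt6a between Krt1-/- tissues (−0.91 and −0.92) and of Krt6b there (−1.49 and −1.48). Median centring made a call of Krt6a between Krt1-/- tissues (−1.25), ended that of Krt6a against Krt16 (1.01, exact permutation adjusted p = 0.060) and turned Krt17 in the first column set to −0.10. It took Krt17 in skin to 0.92, between Krt1+/+ tissues to −1.03 and in the last column set to 1.12, with the same calls. The Krt16 tissue difference was also lost with normalization within each tissue (−1.14) and without a detection filter (−1.22), which also ended the Krt6b difference between Krt1+/+ tissues (−1.99). Trended variance made a call of Krt17 on the average (0.32), and with it, the stricter filter or the probe fit, Krt6a passed between Krt1-/- tissues (−1.10). With only the arrays of the comparison Krt17 in skin missed the threshold (0.56) and Krt6b between Krt1-/- tissues passed it (−1.50). The causes were not tested.

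With one array left out, the tissue difference ranged from −0.061 to 0.97 for Krt6a, −1.15 to 0.20 for Krt6b and −1.54 to −0.94 for Krt16. Skin minus epidermis in Krt1+/+ ranged from −2.65 to −1.30 for Krt6b and −0.65 to −0.42 for Krt17, and in Krt1-/- from −1.47 to −0.44 for Krt6a, −1.85 to −0.95 for Krt6b and −0.14 to 0.054 for Krt17. Krt17 ranged from −0.046 to 0.18 in epidermis, 0.46 to 0.66 in skin, −0.088 to 0.14 in the first column set and 0.50 to 0.71 in the last, and Krt6a against Krt16 from 0.99 to 1.29. Replicate numbers did not pair the samples (correlations of same-numbered deviations −0.21 to 0.28). With the replicate block the Krt16 tissue difference of −1.22 missed the threshold (adjusted p = 0.052) and Krt6a between Krt1-/- tissues (−1.10) passed it (adjusted p = 0.048), with no other change of call among the 4 genes. Median centring changed the genes called on the average from 1324 higher and 1601 lower to 1127 and 721 (45.3% against 61.0% of calls higher), and those of the first column set from 3504 to 2283 (47.8% against 62.3% higher). Of 76 calls of other genes followed over the alternatives, 59 held under every alternative and 0 reversed. These calls include Krt79, Krt80 and Sox9, not named above, and leave out Krt1 and Osmr. Dim signals limit Krt6a and the Krt1+/+ side of Krt6b. The brightest signals of Krt6b, Krt16 and Krt17 may be compressed near the ceiling, which was not tested.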
